A study of Mus musculus with 3 samples.

Results

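The renin-angiotensin system was followed in vessel-lining cells sorted from the embryonic mouse kidney. It was represented by 8 genes, chosen by symbol as Agt, Ren1, Atp6ap2, Ace, Enpep, Agtr1a, Agtr1b and Agtr2, and a gene was measured where the array annotation gave a probe set that gene symbol alone. That held for 6 of the 8, each with 1 probe set, out of 19938 named genes. Ren1 (renin) and Agtr1b (the second type 1 receptor of rodents) had no such probe set and were not analysed here, so that the enzyme that starts the cascade is missing from the measurements. The cells came from CD-1 mice carrying the transgene Tg(TIE2GFP)287Sato, in which the promoter of Tek, the gene of the angiopoietin receptor Tie2, drives green fluorescent protein. Kidneys of 15.5 dpc embryos (Theiler stage TS23) were dissociated with trypsin and GFP-positive cells were sorted by FACS, and each sample pooled 4 to 5 kidneys. The 3 samples form a single group with no treatment and no control group, and each was hybridized to its own Affymetrix Mouse Gene 1.0 ST array. The Tie2 promoter is also active in some blood-forming cells and macrophages, so the sorted population need not be endothelial throughout. The study calls its samples biologically independent, while the labels name no litters for the pools, and the p-values cover the spread of these 3 arrays.

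In this hormone system renin cuts angiotensinogen, the product of Agt, to angiotensin I, and angiotensin-converting enzyme (Ace) trims that peptide to angiotensin II. Angiotensin II raises blood pressure through the type 1 receptors, while the type 2 receptor Agtr2 often opposes them, and aminopeptidase A (Enpep) converts the peptide to angiotensin III. Atp6ap2 binds renin and prorenin and is also an accessory subunit of the vacuolar proton pump. In the adult, Ace is a classic protein of the endothelial surface, and in the fetal kidney renin is made along the walls of forming arteries and Agtr2 is known from the mesenchyme. Mice without angiotensinogen, Ace or type 1 receptors form kidneys with a poor papilla and thickened vessel walls.

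Atp6ap2 was the sole measured gene of the system that lay above the low-signal filter of the study, and Agt, Ace, Enpep, Agtr1a and Agtr2 lay below it. The filter is a signal of 100, which is 6.64 on the log2 scale of the deposited values. The study asked for raw levels of at least 100 in 3 samples, in its own processing. Here the mean of deposited values was tested, whose scale may differ, so the calls are not those of the study. Each probe set was tested against it in both directions with limma, and p-values were Benjamini-Hochberg adjusted over all 35557 probe sets. Of the 6 measured genes 1 was above and 5 were below. The background was 41.6% above and 41.6% below for all named genes, and 35.5% and 41.7% for all probe sets. A signal of at least 100 in all 3 arrays was found for 1 of the 6, against 47.3% of named genes, and the other 5 reached it in no array. A value below the level is a dim probe set and does not show that the transcript was absent. In these sorted pools, fewer cells carrying a transcript and less of it per cell cannot be told apart.

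These calls depend on how the spread is estimated. Values were exactly equal in arrays 1 and 2 for 5 of the 6 genes and in all 3 arrays for Agtr2, as they were in at least 2 arrays for 55.9% of all probe sets, and such ties make a spread look small. When 1 common spread was used for every probe set, called the pooled spread here, Atp6ap2 stayed above and Agt stayed below, and the other 4 genes were on neither side. By that spread 36.0% of named genes were above and 32.5% below, and 34.0% and 38.7% of probe sets. Without array 1, and likewise without array 2, none of the 6 was above by limma (1 at an unadjusted p under 0.05) and 1, Agt, was below. Calls were also fewer among all named genes, with 27.7% above and 26.8% below without array 1 and 25.3% and 25.9% without array 2. Without array 3 (40.2% and 45.6% of named genes) the counts were again 1 and 5, but the 5 genes below then had equal values in both remaining arrays, so their spread was 0.

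**Figure D1:**
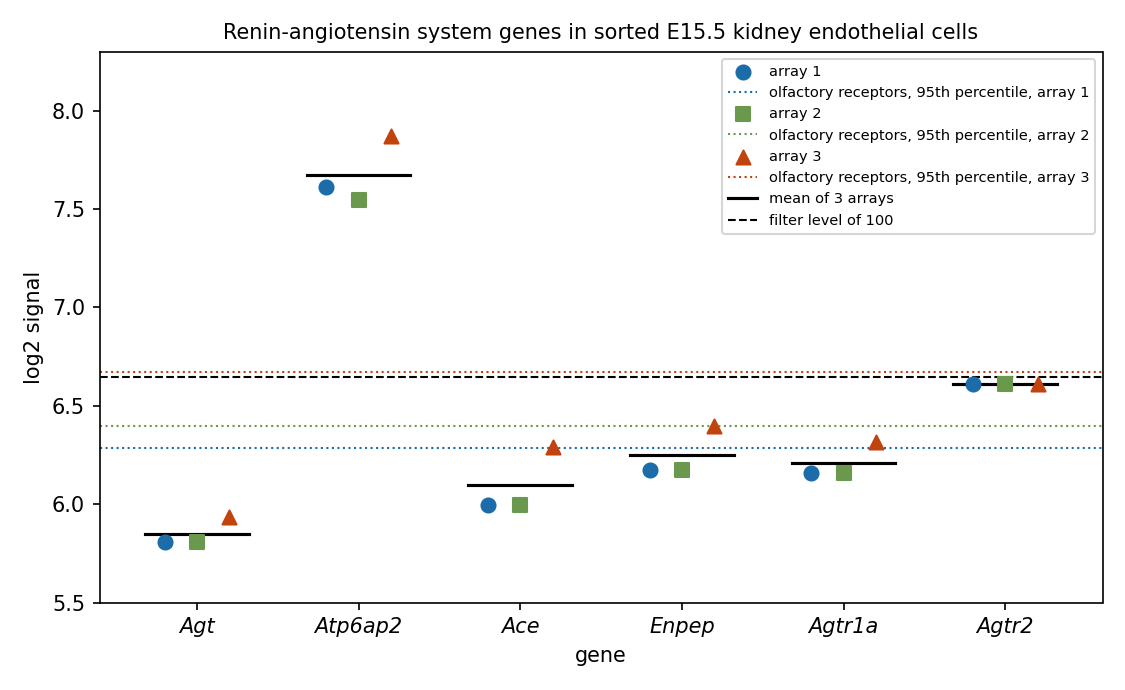
The log2 signal of the 6 measured renin-angiotensin genes is shown for each array (symbols), with the mean of the 3 arrays (bars), the filter level of 100 (dashed line at 6.64) and the 95th percentile of olfactory and vomeronasal receptor probe sets in each array (dotted lines). All 3 values of Atp6ap2 lie above every line, and the values of Agt, Ace, Enpep and Agtr1a lie below the dotted line of their own array.

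The promoters of Atp6ap2 and Ace are shown because the former was above the level and the latter was not, although both are rich in CG dinucleotides. They are RefSeq sequences of build GRCm38.p6, the 250 bases before a transcription start, written 5′ to 3′ on the strand of the gene with each CG in capitals. Ace has a start upstream of the gene body and another inside it, 7241 bases downstream on the same strand, the site from which a shorter form is known to be made in male germ cells. The window of Atp6ap2 is chrX:12587509-12587758 (+ strand), that of the upstream Ace start is chr11:105967698-105967947 (+ strand) and that of the internal start is chr11:105974939-105975188 (+ strand).
Atp6ap2: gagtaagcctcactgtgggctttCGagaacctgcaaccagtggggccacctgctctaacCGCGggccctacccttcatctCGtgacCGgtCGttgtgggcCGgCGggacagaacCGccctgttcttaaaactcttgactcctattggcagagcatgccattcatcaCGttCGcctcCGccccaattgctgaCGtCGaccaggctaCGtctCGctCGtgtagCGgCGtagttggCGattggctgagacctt
Ace, upstream start: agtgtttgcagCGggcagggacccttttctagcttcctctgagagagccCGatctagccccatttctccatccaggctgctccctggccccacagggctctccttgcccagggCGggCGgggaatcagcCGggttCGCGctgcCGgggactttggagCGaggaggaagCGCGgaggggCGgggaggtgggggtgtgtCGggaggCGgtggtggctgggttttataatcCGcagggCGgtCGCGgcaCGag
Ace, internal start: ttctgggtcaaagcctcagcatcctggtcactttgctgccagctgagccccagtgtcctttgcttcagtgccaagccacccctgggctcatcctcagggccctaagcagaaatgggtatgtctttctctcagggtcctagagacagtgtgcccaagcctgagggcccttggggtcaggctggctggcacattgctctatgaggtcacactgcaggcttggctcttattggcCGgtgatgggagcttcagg

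The Atp6ap2 window held 20 CG and the upstream Ace window 19, counts that were reached by 17.9% and 19.7% of 32851 promoter windows. The internal Ace window held 1. Of the other genes of the system, Enpep held 6, Agtr1b 5, Agtr2 3, Ren1 1 and Agt 0, beside a median of 6 over all windows, and Agtr1a had no window. Taking instead the richest window of each of 15614 named genes with a window, the median count was 12, and 42.8% were above the level and 40.5% below. The median was 18 for the genes above the level and 5 for those below. With 19 CG or more, counts chosen after the windows were seen, 63.1% of 4849 genes were above the level and 20.4% were below, and with 6 or fewer 14.4% of 5311 were above and 69.9% below. By these limma calls Atp6ap2 was on the side of most genes with as many CG and Ace was not. Enpep, Agtr2 and Agt were on the side of most genes with few. By the pooled spread Ace, Enpep and Agtr2 were on neither side, and the shares by CG count were not computed with it. The single Ace probe set is annotated to 3 RefSeq transcripts and does not separate the forms.

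The substrate Agt measured 5.81, 5.81 and 5.93 log2 in arrays 1, 2 and 3. Its values lay 0.12 log2 apart at most and all were well short of the level. The mean was 5.85 ± 0.07 log2 (SD, n = 3), a linear signal of 57.7, and was below the level by limma (adjusted p = 0.0022) and by the pooled spread (adjusted p = 0.00759). Agt was below under each of the 7 alternatives that tested it. Circulating angiotensinogen comes chiefly from the liver, and in the kidney it is known from the proximal tubule.

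Atp6ap2 measured 7.61, 7.54 and 7.87 log2. Array 3 was the highest, and all 3 arrays were above the level. On the linear scale these values are 195, 186 and 234. The mean was 7.67 ± 0.17 log2 (SD, n = 3), 1.03 above the level, with a 95% confidence interval of 7.34 to 8.01 (limma adjusted p = 0.00776, and 0.000536 by the pooled spread). The call was lost without array 1 (adjusted p = 0.074) and without array 2 (adjusted p = 0.0593), and it was kept without array 3 (adjusted p = 0.0317).

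Both measured enzymes lay below the level. Ace had linear signals of 63.9, 63.9 and 78.3, with array 3 the highest. Its mean of 6.10 ± 0.17 log2 (SD, n = 3) had a 95% confidence interval of 5.77 to 6.42 (limma adjusted p = 0.0219). By the pooled spread the interval widened to 5.54 to 6.65, which takes in the level, and the call was lost (adjusted p = 0.0675). Enpep measured 6.17, 6.17 and 6.40 log2, again highest in array 3. Its mean was 6.25 ± 0.13 log2 (SD, n = 3), below the level by limma (adjusted p = 0.0242) but not by the pooled spread (adjusted p = 0.188). Without array 1 or without array 2 neither enzyme passed, with adjusted p = 0.127 and 0.126 for Ace and 0.135 and 0.134 for Enpep.

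Among the receptors, Agtr1a measured 6.16, 6.16 and 6.32 log2. All arrays were below the level, with array 3 the highest. The mean was 6.21 ± 0.09 log2 (SD, n = 3) and was below by limma (adjusted p = 0.0103) but not by the pooled spread (adjusted p = 0.15). Without array 1 or array 2 it did not pass either (adjusted p = 0.0835 and 0.0834). Agtr2 measured 6.61 log2 in every array, a linear signal of 97.6 that is only 0.04 log2 under the level. It was called below by limma (adjusted p = 0.00972) with a spread of 0, and this call was lost with the pooled spread (adjusted p = 0.859), with quantile normalization (adjusted p = 0.49), and without array 1 or array 2 (adjusted p = 0.105 and 0.128).

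Olfactory and vomeronasal receptor genes, most of them known from sensory cells and a few also from the kidney, gave a second view of dim signal. Their 1212 probe sets had a 95th percentile of 6.28 log2 in array 1, 6.40 in array 2 and 6.67 in array 3. Atp6ap2 stood 1.32, 1.14 and 1.20 log2 over that percentile in arrays 1, 2 and 3. Agtr2 stood 0.32 and 0.21 log2 over it in arrays 1 and 2 and fell short by 0.07 in array 3. Agt, Ace, Enpep and Agtr1a were under it in all 3 arrays. When the mean of these percentiles, 6.45 log2, was tested by limma in place of the level, Agtr2 changed sides and was above it (adjusted p = 0.00056). That call again rested on a spread of 0, and the pooled-spread interval of Agtr2, 6.05 to 7.16 log2, takes in 6.45. With this level 2 of the 6 genes were above and 2 below by limma, beside 47.9% and 35.5% of named genes.

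Array 3 stood apart from the others. Its correlation with arrays 1 and 2 across probe sets was 0.923 and 0.927, against 0.976 for arrays 1 and 2 (as a description across probe sets, which share each array). Its values were also less spread, with an SD over probe sets of 1.84 log2 against 2.08 and 2.06. In array 3 the pan-endothelial markers were lower than the mean of arrays 1 and 2 in 10 of 10 cases, beside 33.2% of all named genes. No share was computed for genes as bright as these markers, and the markers were not recounted after quantile normalization. The macrophage markers were higher in 5 of 6, beside 41.2% of all named genes, by a list median of 0.70 log2. That contrast is not of array 3 alone, since Adgre1, Cd68 and C1qa were highest in array 2 (6.74, 8.95 and 6.88 log2). Within the renin-angiotensin genes 5 of 6 were highest in array 3 and Agtr2 was equal. Ace was 0.29 log2 over the mean of arrays 1 and 2, Enpep 0.22, Agtr1a 0.16 and Agt 0.12. Of 4158 named genes with means in the range of these 5 dim genes, 50.2% were higher in array 3, 12.4% were lower and 37.4% were equal. Atp6ap2 was higher in array 3 by 0.30 log2. Among 1847 named genes with a mean within 0.25 log2 of it, itself included, 16% were higher and 60.3% were lower, with a median of -0.10. In this contrast the sign of the median of those genes depends on the scaling, while Atp6ap2 was higher in array 3 either way. After quantile normalization the difference was 0.58 log2 for Atp6ap2, but the median of those 1847 genes was 0.13, and 56.1% of them were highest in array 3 against 13.3% before. Of the 6 renin-angiotensin genes 4 were then highest in array 3, beside 48.0% of all named genes (5, beside 37.9%, before). The part of the cell mixture or of the array in these differences was not tested.

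**Figure D2:**
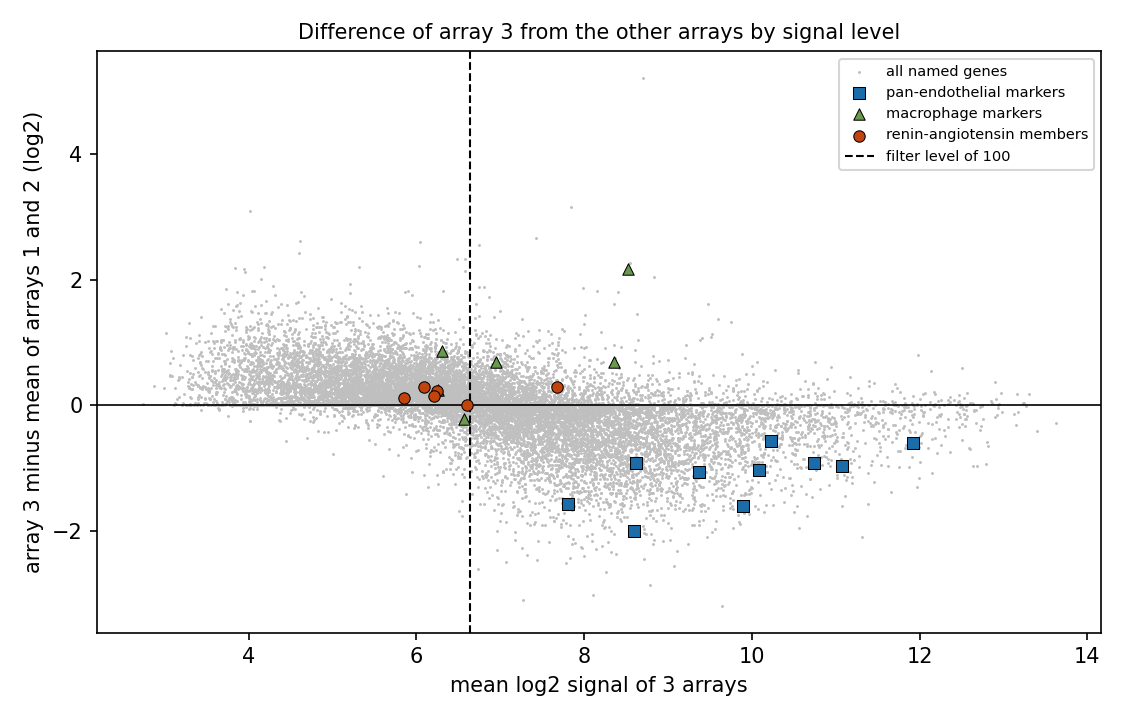
For each named gene (grey points), the log2 signal of array 3 minus the mean of arrays 1 and 2 is plotted against the mean log2 signal of the 3 arrays, with the renin-angiotensin genes in red circles, pan-endothelial markers in blue squares and macrophage markers in green triangles. Atp6ap2, at a mean of 7.67, lies 0.30 above 0, whereas most genes of its level (not after quantile normalization) and all 10 endothelial markers lie below 0.

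Atp6ap2 had the largest SD of the 6 genes. The genes whose deviations over the 3 arrays came closest to its own were Ticam1, an adaptor of Toll-like receptors, Zfp566, a zinc finger gene, and Smad7, an inhibitor of TGF-beta signalling, each with a root mean square difference of 0.005 log2. With only 3 arrays such likeness is common, and 1614 named genes came within 0.05 log2.

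Other genes that make, break down or bind angiotensin peptides lay on both sides of the level, at shares near those of all named genes. The list held 20 genes, of which 15 were measured. By limma 6 (40%) were above the level and 7 below, beside 41.6% and 41.6% of all named genes. By the pooled spread 6 were above and 6 below, beside 36.0% and 32.5%. The median level of the list was 6.71 log2, beside 6.67 over all named genes. Levels of different probe sets also depend on their affinity, so that no order between genes is drawn. Without array 1 or array 2 the count below was 3 or 4, beside 26.8% or 25.9% of named genes. The lysosomal proteases Ctsd, which can cut angiotensinogen in vitro, and Ctsa measured 9.19 ± 0.07 and 8.29 ± 0.38 log2. The endopeptidases Nln (neurolysin) and Thop1 (thimet oligopeptidase) measured 8.28 ± 0.00 and 7.28 ± 0.00. The prolyl peptidases Prep and Prcp, which act on angiotensins at proline, were above too, with 9.25, 9.17 and 8.57 log2 for Prep in arrays 1, 2 and 3 and a mean of 8.26 ± 0.10 (SD, n = 3) for Prcp.

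The genes below the level included the receptor of angiotensin-(1-7), Mas1, at 5.05 ± 0.21 log2. Neprilysin (Mme) at 5.46 ± 0.07 and aminopeptidase N (Anpep) at 6.30 ± 0.06 were below as well, the latter not by the pooled spread (SD, n = 3). Both are surface peptidases of the proximal tubule brush border, as is Enpep. The 4 mast cell and granulocyte proteases of the list were below, with Cma1 at 5.16 ± 0.02, Mcpt4 at 5.05 ± 0.22, Cpa3 at 5.23 ± 0.47 and Ctsg at 4.46 ± 0.08 log2. Dipeptidyl peptidase Dpp3 (6.71 ± 0.04) and the receptor Mrgprd (6.79 ± 0.13) were on neither side. Genes of the list that had no probe set of their own, such as Lnpep and Klk1, were not analysed here.

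**Figure D3:**
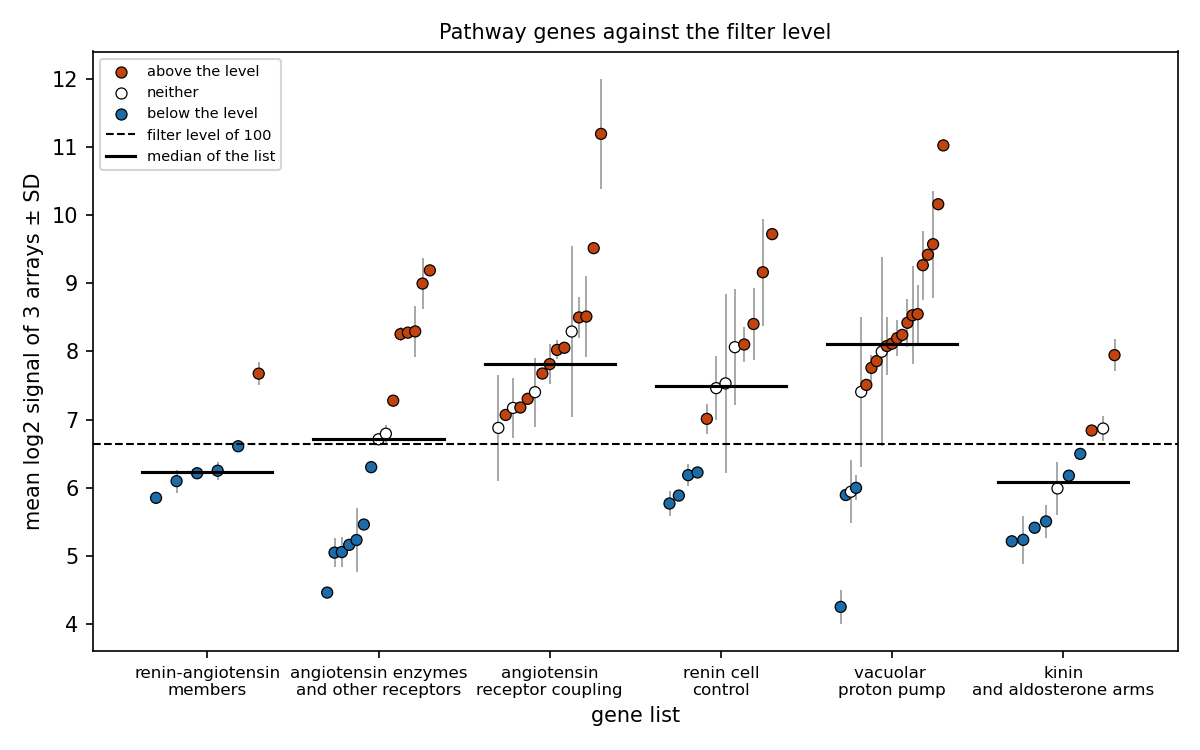
Each circle is the mean log2 signal of a measured gene over 3 arrays with its SD, filled by its call against the filter level of 100 (dashed line), for the renin-angiotensin genes and 5 lists of related genes, and black bars are list medians. The renin-angiotensin median lies at 6.23, under the line, and those of receptor coupling and of the proton pump lie at 7.81 and 8.12, over it.

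Genes that couple angiotensin receptors to the cell lay mostly above the level. It was passed by 11 of 15 measured genes, and by limma none was below, also none at an unadjusted p under 0.05 and none by the pooled spread. Among all named genes 41.6% were above and 41.6% below by limma, and 36.0% and 32.5% by the pooled spread. Their median was 7.81 log2. Without array 1 or array 2, 7 or 6 were above, beside 27.7% or 25.3% of named genes. Agtrap, which binds the type 1 receptor and promotes its internalization, measured 7.18 ± 0.01 log2 (not above by the pooled spread), and Mtus1, whose product binds the type 2 receptor, measured 7.30 ± 0.08. Gnaq, the G protein that links type 1 receptors to phospholipase C, was at 7.81 ± 0.29. Its relative Gna11 passed by the pooled spread alone, at 8.29 ± 1.25 (SD, n = 3), and measured 9.49, 8.39 and 7.0 in arrays 1, 2 and 3. The others not called by limma were Arrb1, Plcb1 and Jak2, of which Jak2 was above by the pooled spread, named after their values were seen. These proteins serve many receptors besides.

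Of 12 measured genes for control of renin-producing cells, 5 were above and 4 below by limma, beside 41.6% and 41.6% of all named genes. By the pooled spread 8 were above and 2 below, beside 36.0% and 32.5%. Without array 1 or array 2 the counts above were 2 and 1, beside 27.7% and 25.3% of named genes. In each case 2 were below, beside 26.8% and 25.9%. The cAMP response factor Creb1 measured 9.16 ± 0.78 log2, and its coactivators Crebbp and Ep300 measured 9.72 ± 0.07 and 8.40 ± 0.53 (SD, n = 3). Rbpj, the transcription factor of Notch signalling that also maintains renin expression, counted as above with probe sets on both sides, at 8.51 and 5.51 log2. Those below, named after their values were seen, were the adenylyl cyclase Adcy5, the prostaglandin receptor Ptger4, the nuclear receptor Nr1h3 and the phosphodiesterase Pde3b. Gnas, Adrb1, Prkaca and Akr1b7, a marker of renin cells, were not analysed here.

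Like Atp6ap2, most of the vacuolar proton pump lay above the level, 15 of 21 measured genes with 3 below (17 and 4 by the pooled spread). Among all named genes 41.6% were above and 41.6% below (36.0% and 32.5% by the pooled spread). The median was 8.12 log2. Without array 1 or array 2 the count above was 8, beside 27.7% or 25.3% of named genes. The other accessory subunit, Atp6ap1, measured 8.42 ± 0.35 log2, the catalytic subunit Atp6v1a 8.12 ± 0.00 and the membrane subunit Tcirg1 7.76 ± 0.19 (SD, n = 3). Atp6v0d1 passed by the pooled spread alone, with 8.66, 8.92 and 6.40 log2 in arrays 1, 2 and 3. The 3 genes below, named after their values were seen, were Atp6v0a4, Atp6v0d2 and Atp6v1c2, which encode subunit forms of restricted tissues. In array 3, 5 of the 21 genes were higher than the mean of arrays 1 and 2 and 11 were lower, while Atp6ap2 was higher. Among all named genes 41.2% were higher and 33.2% lower.

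In the kinin and aldosterone arms 2 of 10 measured genes were above and 6 below (1 and 5 by the pooled spread). Among all named genes 41.6% were above and 41.6% below (36.0% and 32.5% by the pooled spread). Without array 1, and also without array 2, 1 was above, beside 27.7% and 25.3% of named genes. The kinin receptors were near the level, with Bdkrb1 above at 6.84 ± 0.00 log2 (not by the pooled spread) and Bdkrb2 below at 6.50 ± 0.00 (not by the pooled spread either). Kininogen Kng1 and carboxypeptidase N (Cpn1), both known as liver products, were below at 5.23 ± 0.35 and 5.21 ± 0.00 (SD, n = 3). The other gene above, named after its values were seen, was the kinase Sgk1, which aldosterone induces in the distal nephron, at 7.95 ± 0.24.

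The markers of the cells that could carry these genes were set beside them. For comparison with every marker list, 41.6% of all named genes were above and 41.6% below by limma. By the pooled spread these shares were 36.0% and 32.5%. Pan-endothelial markers were above in 8 of 10 cases and below in none by limma, also none at an unadjusted p under 0.05, with Tek at 10.74 ± 0.53, Cdh5 at 11.08 ± 0.59 and Pecam1 at 10.09 ± 0.60 log2 (SD, n = 3). Of 8 mural and juxtaglomerular markers 1 was above and 7 below (by the pooled spread 4 below and Acta2 on neither side). Pdgfrb (5.87 ± 0.00) and Rgs5 (5.89 ± 0.00) were below and the actin Acta2 (7.21 ± 0.00) was above. Of 8 proximal tubule markers, the site of Enpep and Agt in the adult, 1 was above and 4 below (1 and 2 by the pooled spread), with Lrp2 at 5.93 ± 0.03, Cubn at 5.15 ± 0.00 and Slc34a1 at 6.47 ± 0.03. Of 7 stromal markers 4 were above and 2 below (2 and 2 by the pooled spread), with Foxd1 at 7.87 ± 0.54, Meis1 at 6.97 ± 0.13 and Tbx18 at 5.00 ± 0.22.

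Macrophage markers were on neither side by limma in 6 of 6 cases, beside 3353 of all 19938 named genes. At an unadjusted p under 0.05 by limma 1 was above and none below, and by the pooled spread 2 were above. Their median was 6.42 log2 in array 1, 6.93 in array 2 and 7.15 in array 3. Csf1r measured 6.95 ± 0.48, Adgre1 6.26 ± 0.58 and Ptprc 6.30 ± 0.50 log2 (SD, n = 3). The markers above by the pooled spread, named after their values were seen, were Mrc1 with 6.51, 9.08 and 9.97 log2 in arrays 1, 2 and 3 and Cd68 with 7.30, 8.95 and 8.82. Among 6 nephron progenitor markers 4 were above and 2 below (2 and 1 by the pooled spread), with Six2 at 7.37 ± 0.12, Cited1 at 7.28 ± 0.00 and Eya1 at 6.27 ± 0.00. Among 6 ureteric bud markers 2 were above and 3 below (1 and 1 by the pooled spread), with Ret at 6.15 ± 0.20, Wnt11 at 6.49 ± 0.16 and Hoxb7 at 7.67 ± 0.00. Podocyte, red cell and adrenal markers were above in 1 of 3, 1 of 4 and 1 of 5 cases and below in 1, 2 and 3, by limma. By the pooled spread 1, 2 and 2 were below. Podxl of the podocyte list was then still above, and the red cell and adrenal genes were not. By either spread Nphs1 was on neither side and Synpo was below. The 2 probe sets of Nphs1 stood at 6.276 and 6.637 log2, and by limma only the former was below (adjusted p = 0.00131). Nphs1 measured 6.46 ± 0.23, Synpo 5.99 ± 0.10 and Podxl 8.04 ± 0.18 log2. The red cell genes Alas2, Epb42 and Hbb-bh1 measured 7.13 ± 0.32, 5.58 ± 0.00 and 5.09 ± 0.09. The adrenal genes Star, Cyp11a1 and Nr5a1 measured 5.55 ± 0.00, 5.38 ± 0.17 and 6.57 ± 0.00. Whether any of these cells contributed to the signal of Atp6ap2 or of the dim renin-angiotensin genes was not tested.

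**Figure D4:**
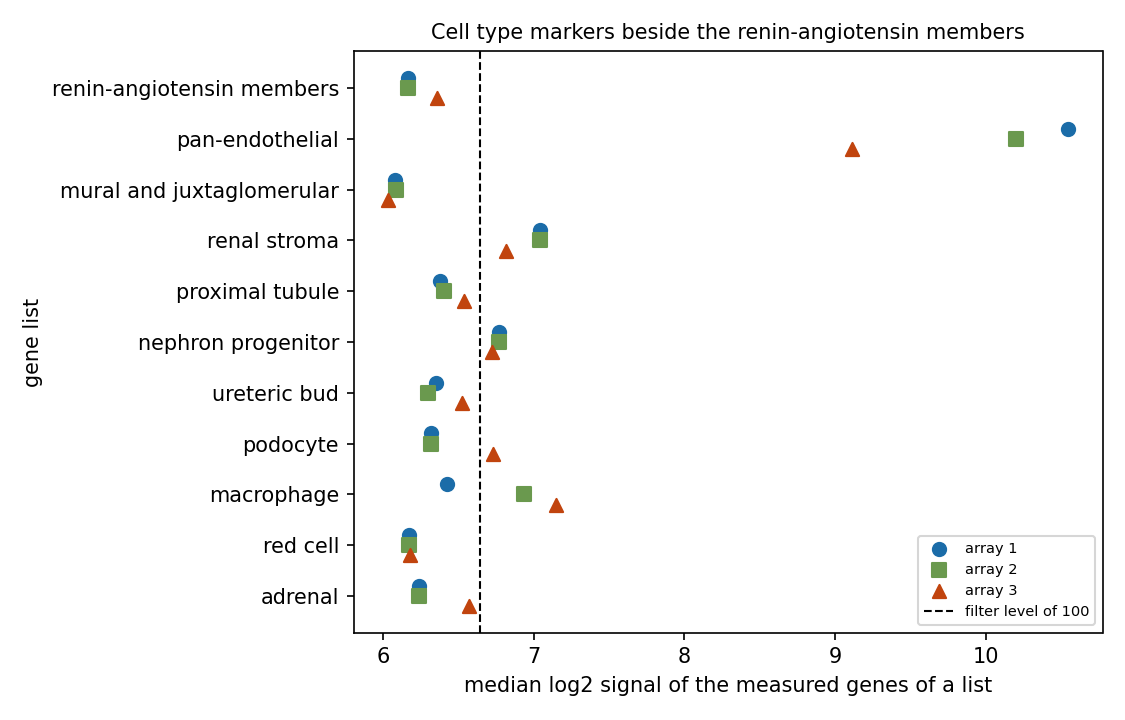
Symbols give the median log2 signal of the measured genes of each list in arrays 1, 2 and 3, and the dashed line is the filter level of 100. The median of the renin-angiotensin genes lies under the line in all arrays, at 6.17, 6.17 and 6.36, while that of pan-endothelial markers is 10.55, 10.20 and 9.11.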

How the data were processed

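Endothelial RNA from 3 sorted pools was purified on columns, amplified in 1 round (NuGEN WT-Pico), then labelled and hybridized to 1 Affymetrix array per pool. The deposited values are log2 signals for 35557 probe sets, made by the authors with Affymetrix Expression Console per the labels' processing notes, with version and summarization algorithm not given in the sources used here. RMA is named for the study's own analysis, and summarizing 3 arrays by medians can leave equal values. Some values also recur across genes, such as 7.2776 log2 in every array for Thop1 and Cited1, and 5.8916 for Rgs5 and Atp6v0a4. An SD of 0 is therefore not read as close agreement of replicates. No array build is given, so no probe coordinates are printed. The number of arrays limits the precision.

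Gene names came from the platform annotation. A single symbol was given to 21789 of them, several to 1621 and none to 12147. Symbols were updated by gene identifier in a RefSeq table of GRCm38.p6, which matched 21698. A gene's level was the mean of its probe sets, and 999 genes had more than 1. A gene was above the level if any probe set was and below only if all were.

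The level of 100 is the study's filter on raw signal, and the study's tests between sample types could not be run on 1 group. An intercept-only limma 3.58.1 fit with eBayes in R 4.3.3 gave one-sided p-values above and below the level, which were adjusted by Benjamini-Hochberg across the whole table and called at 0.05. The fit was tested on simulated data without tied values, so that test does not cover the ties seen here. Alternatives were a pooled spread, a trended robust prior, quantile normalization, another level, a filter on dim probe sets and leaving out each array. Tables were made with Python 3.11.15 and pandas 2.3.3.

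The members and lists were chosen with earlier results of these data known. Named genes were all members, the measured genes of the angiotensin enzyme and receptor list, the first 4 of each other pathway list and the first 3 of each marker list, with the 3 genes closest to the member of largest SD.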

Additional observations from a re-analysis of the deposited data

How the results depend on the processing

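The 6 renin-angiotensin genes and 5 pathway lists were recounted under each alternative. With the pooled spread 1 member was below the level in place of 5, genes of renin cell control counted 8 above and 2 below in place of 5 and 4, and the kinin and aldosterone arms 1 above in place of 2. Against the level of 6.45 log2 taken from olfactory and vomeronasal receptors, 2 members were above and 2 below, 4 genes of the kinin and aldosterone arms were above, and Agtr2 turned to 0.16 log2 above. Leaving out 1 array, members counted 0 to 1 above and 1 to 5 below, angiotensin enzymes and other receptors 4 to 6 and 3 to 6, receptor coupling 6 to 10 above, renin cell control 1 to 4 and 2 to 4, the proton pump 8 to 15 and 2 to 4, and the kinin and aldosterone arms 1 to 3 and 4 to 5. Fits on 2 arrays have fewer samples, and among all named genes they called 25.3% to 40.2% above and 25.9% to 45.6% below. The cause of the other changes was not tested. The trended robust prior moved no count by over 1.5 times, and neither did quantile normalization, by which 4 of the 6 members were highest in array 3. The filter on dim probe sets, which leaves no member below the level to be tested, changed no count above by over 1.5 times. Of 43 member results under alternatives, 25 kept their call and direction, 17 lost the call and 1 reversed. No paired analysis was possible because the series has 1 group. Low signal over background limits what can be said of the dim genes.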
